A study of Mus musculus with 18 samples.

Results

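The 10 genes described here encode the 5 NF-κB subunits (Nfkb1, Rela, Rel, Nfkb2 and Relb) and 5 IκB proteins that bind them (Nfkbia, Nfkbib, Nfkbie, Nfkbid and Nfkbiz). They were taken by symbol from the 23420 genes listed for each library, and all 10 were above the filter on low values in both arms of the study. RNA came from splenic B cells of MRL/lpr mice aged 5 to 7 weeks, an autoimmune strain with the lpr allele of Fas and lupus-like disease. The study asked how exchanging the signaling (TIR) domain between TLR7 and TLR9 alters the B cell response.

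All mice of the first arm were female and Tlr7-/-. One genotype of that arm was labelled TLR9het (Tlr9+/- Tlr7-/-, Tlr9het below), and the other was Tlr997 Tlr7-/- (Tlr997), in which the TLR9 protein carries the TIR domain of TLR7. Their B cells were cultured for 4 h without agonist or with 10 µg/ml CpG, a DNA ligand of TLR9. Mice of the second arm were male and Tlr779 Tlr9-/- (Tlr779), so that TLR7 carries the TIR domain of TLR9, and their cells were cultured for 4 h without agonist or with 5 µg/ml CL097, a small-molecule ligand of TLR7. Each of the 6 groups had 3 libraries. The chimeras were made by editing the endogenous loci and are present in every cell of the mouse. The titles name the first control genotype as Tlr9+/- whereas the treatment protocol writes Tlr9-/- for it, and the titles were followed. A control genotype for the Tlr779 arm was not analysed here, so each Tlr779 value with CL097 was compared with Tlr779 cells without it.

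NF-κB is a family of dimeric transcription factors that B cells hold ready before any stimulus. In the canonical pathway, dimers of p50 (from Nfkb1), RelA (Rela) and c-Rel (Rel) are retained in the cytoplasm by IκBα (Nfkbia), IκBβ (Nfkbib) and IκBε (Nfkbie) until the IκB kinase marks these inhibitors for destruction. The alternative pathway releases RelB (Relb) by processing of the Nfkb2 precursor to p52, and IκBNS (Nfkbid) and IκBζ (Nfkbiz) act in the nucleus on DNA-bound dimers, where they can repress or enhance single target genes. Several of these genes are themselves NF-κB targets, IκBα being the textbook case of a feedback inhibitor.

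Values are log2 CPM (reads relative to library size, on a log2 scale) as normalised by the authors, and the depth of the libraries is unknown. Pearson's r between libraries of the same group, a description over 11676 genes, ranged from 0.94 to 0.99, and the lowest values involved unstimulated Tlr997 replicate 3. The summed level of 6 B cell markers was 5520 to 7340 CPM over the unstimulated libraries. With agonist it was 1650 to 1720 CPM in Tlr9het, 2600 to 3160 in Tlr997 and 2370 to 3020 in Tlr779, so that the Tlr9het libraries with CpG were the lowest. Other markers in the 18 libraries summed to between 3.08 and 26.4 CPM for 7 T cell genes, 82.4 and 440 for 7 macrophage and monocyte genes, 3.4 and 130 for 5 neutrophil genes, 3.97 and 15.6 for 5 NK cell genes and 12.7 and 487 for 4 erythroid genes. With agonist, 6 dendritic cell genes went from between 30.4 and 43.9 to between 71.4 and 99.3 CPM, 4 plasma cell genes (one of them Irf4, also a listed NF-κB target) from between 797 and 950 to between 1880 and 2320, and 5 marginal zone B cell genes from between 551 and 770 to between 209 and 296. The hemoglobin gene Hba-a1 was at its lowest value in every library. The part of these cells in the levels below was not tested, and in bulk RNA fewer cells of a type and less RNA per cell cannot be told apart. Tlr9 was between 6.93 and 7.47 log2 CPM in the Tlr779 libraries labelled Tlr9-/-, between 7.28 and 8.08 in Tlr9het and between 7.02 and 7.56 in Tlr997, so its transcript did not set the libraries labelled Tlr9-/- apart. The Tlr779 allele itself holds Tlr9 sequence for the TIR domain, and the part of the gene that the Tlr9-/- allele lacks is not given in the sources used here, so this level does not check the label. Tlr7 was between 2.68 and 4.28 in Tlr9het, between 4.81 and 5.36 in Tlr997 and between 6.61 and 7.82 in Tlr779. Within each condition, the Tlr9 levels of Tlr9het and Tlr997 did not overlap. They were 7.28 to 7.48 and 7.02 to 7.06 without agonist, and 7.93 to 8.08 and 7.18 to 7.56 with CpG. The labels do not state whether libraries with one number came from one mouse, so p-values measure the spread between these libraries.

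The 10 genes lie on 7 chromosomes, at the following places in GENCODE M21 annotation of GRCm38 (mm10). Among the subunits, Nfkb1 spans chr3:135584655-135691547, Rela chr19:5637483-5648130, Rel chr11:23736847-23770970, Nfkb2 chr19:46304320-46312385 and Relb chr7:19606217-19629438. Among the IκB genes, Nfkbia spans chr12:55489410-55492647, Nfkbib chr7:28758251-28767512, Nfkbie chr17:45555703-45563169, Nfkbid chr7:30421732-30428746 and Nfkbiz chr16:55811375-55838899. On the opposite strand, Psd shares 299 exon bases (7.08%) with Nfkb2 and Ccer2 shares 314 exon bases (14.8%) with Nfkbib. Library preparation kept the strand, but the strand setting used for counting is not given in the sources used here, so values of Nfkb2 and Nfkbib may hold reads of these neighbours.

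RefSeq promoter sequences (GRCm38.p6) were matched by symbol for 7 of the 10 genes, while Nfkb1, Relb and Nfkbiz had no entry and were not searched. For the 7, the 250 bases before each start site were searched on both strands for the κB consensus, the 10-base sequence that NF-κB dimers bind. It was present for 5 of these 7 genes (71.4%), against 2225 of all 27025 genes in the table (8.23%) and 2382 of 32851 promoters (7.25%), which is a description without a test. The Rela and Nfkbib windows did not hold these letters. The windows below are shown because they carry the shared feature, with 1 match per gene printed 5′ to 3′ on the strand of the gene and the match in capitals. The Nfkbia match starts 29 bases before the start site (window chr12:55492657-55492686, minus strand), the Nfkb2 match 39 bases before (chr19:46304688-46304717, plus strand), the Rel match 92 bases before (chr11:23771042-23771071, minus strand), the Nfkbie match 106 bases before (chr17:45555584-45555613, plus strand) and the Nfkbid match 226 bases before 1 of its 3 listed starts (chr7:30422170-30422199, plus strand).
Nfkbia: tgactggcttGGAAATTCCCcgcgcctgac
Nfkb2: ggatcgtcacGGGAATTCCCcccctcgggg
Rel: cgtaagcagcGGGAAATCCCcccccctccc
Nfkbie: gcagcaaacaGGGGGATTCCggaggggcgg
Nfkbid: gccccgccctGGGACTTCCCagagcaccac
Binding at these windows was not measured, and the genes that carry a match did not respond alike to the agonists, as the levels below show.

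In unstimulated Tlr9het cells, Nfkb1 was the most abundant of the 10 transcripts per kilobase of exon, at 7.64 ± 0.05 log2 CPM per kb (SD, n = 3). Nfkbia followed at 7.07 ± 0.13 and Nfkbid at 6.69 ± 0.11. Below them, Nfkb2 at 6.30 ± 0.16 and Nfkbie at 6.23 ± 0.12 overlapped. The order went on with Rela at 5.96 ± 0.09, Rel at 5.79 ± 0.03, Relb at 5.50 ± 0.10 and Nfkbib at 4.90 ± 0.15, and ended with Nfkbiz at 4.44 ± 0.14. The same order was measured in unstimulated Tlr997 and Tlr779 cells, with overlap of Nfkbib and Nfkbiz in Tlr997 and of all neighbours from Nfkbid to Rela in Tlr779. With CpG, the Tlr9het order was led by Nfkb1 at 9.46 ± 0.05 log2 CPM per kb, with Nfkbia at 9.15 ± 0.08 and Nfkbiz at 9.12 ± 0.05 overlapping behind it, and Relb was last at 5.18 ± 0.12. Nfkbiz thus moved from the last to the third place, and to the second place in Tlr779 cells with CL097, where it was at 8.45 ± 0.10 and overlapped Nfkbia at 8.36 ± 0.19.

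**Figure D1:**
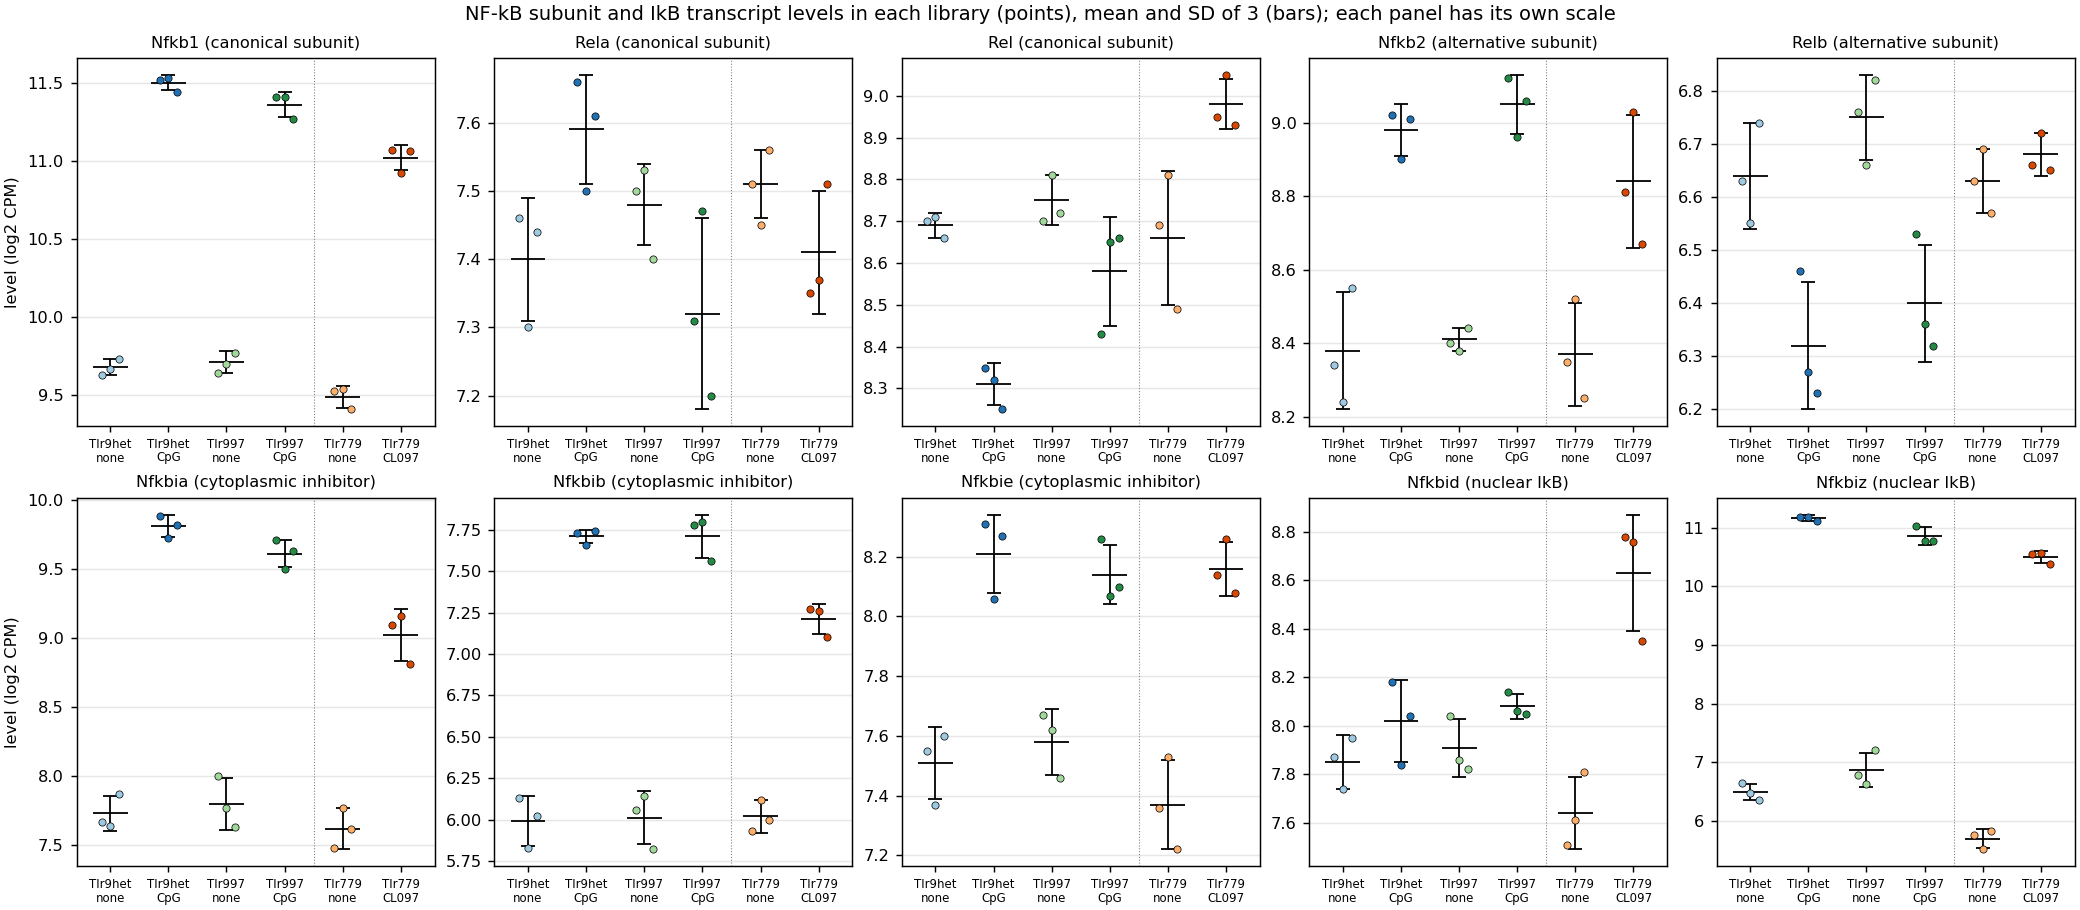
Levels of the 10 genes in the 18 libraries. The y axis is log2 CPM on a separate scale in each panel, the x axis the 6 groups (none, without agonist), points are libraries, and bars are the mean and SD of 3. Nfkb1, Nfkb2, Nfkbia, Nfkbib, Nfkbie and Nfkbiz lie apart without and with agonist in all 3 genotypes and are higher with it. Rel lies apart too, but is lower with CpG in Tlr9het (8.25 to 8.35) and higher with CL097 in Tlr779 (8.93 to 9.05).

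The cytoplasmic inhibitors all rose with each agonist. Nfkbia was at 7.67, 7.64 and 7.87 log2 CPM in unstimulated Tlr9het libraries and at 9.88, 9.72 and 9.82 with CpG. Tlr997 libraries were at 8, 7.77 and 7.63 without and at 9.71, 9.50 and 9.63 with CpG, and in Tlr779 at 7.48, 7.77 and 7.62 without and at 9.09, 9.16 and 8.81 with CL097. The stimulated and unstimulated libraries did not overlap in any genotype, and the log2 fold changes were 2.08 (SE 0.09, limma adjusted p = 2.7e-10) in Tlr9het, 1.81 (SE 0.09, adjusted p = 1.3e-09) in Tlr997 and 1.40 (SE 0.11, adjusted p = 2.5e-05) in Tlr779. On the linear scale these are 4.23-fold, 3.5-fold and 2.63-fold.

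Nfkbib, whose product holds dimers in the cytoplasm for longer than IκBα, was at 6.13, 5.83 and 6.02 log2 CPM in unstimulated Tlr9het libraries and at 7.73, 7.66 and 7.74 with CpG. It was at 6.06, 6.14 and 5.82 in unstimulated Tlr997 libraries and at 7.78, 7.80 and 7.56 with CpG, and in Tlr779 it was at 5.93, 6.12 and 6 without and at 7.27, 7.26 and 7.1 with CL097. Again no libraries overlapped. The log2 fold changes were 1.72 (SE 0.10, adjusted p = 2.1e-09), 1.70 (SE 0.10, adjusted p = 2.8e-09) and 1.19 (SE 0.08, adjusted p = 1.2e-05) in Tlr9het, Tlr997 and Tlr779.

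The smallest rise among the inhibitors was that of Nfkbie. Its level was 7.55, 7.37 and 7.60 log2 CPM in unstimulated Tlr9het libraries and 8.31, 8.06 and 8.27 with CpG. In Tlr997 the values were 7.67, 7.62 and 7.46 without and 8.26, 8.07 and 8.10 with CpG, and in Tlr779 they were 7.36, 7.53 and 7.22 without and 8.14, 8.26 and 8.08 with CL097. No groups overlapped, and the log2 fold changes were 0.70 (SE 0.09, adjusted p = 5.5e-06), 0.56 (SE 0.09, adjusted p = 5.1e-05) and 0.79 (SE 0.09, adjusted p = 0.00016). Without unstimulated Tlr997 replicate 3 the Tlr997 fold change of Nfkbie was 0.498, just under the threshold of 0.5.

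The nuclear IκB genes split. Nfkbiz, encoding IκBζ, which acts as a coactivator at a subset of NF-κB targets such as Il6, had the largest response of the 10 genes in each genotype. It was at 6.64, 6.47 and 6.36 log2 CPM in unstimulated Tlr9het libraries and at 11.19, 11.19 and 11.11 with CpG. The Tlr997 values were 6.78, 6.63 and 7.2 without and 11.03, 10.77 and 10.77 with CpG, and those of Tlr779 were 5.76, 5.51 and 5.82 without and 10.55, 10.57 and 10.39 with CL097. The groups lay far apart, with log2 fold changes of 4.68 (SE 0.12, adjusted p = 3.9e-12), 3.99 (SE 0.12, adjusted p = 1.6e-11) and 4.81 (SE 0.09, adjusted p = 1.8e-07). These correspond to 25.6-fold, 15.9-fold and 28.0-fold rises, and in absolute size they stood at the percentiles 99.5, 99 and 99.9 of all genes tested.

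Nfkbid, encoding IκBNS, which B cells need for responses to T-independent antigens, passed the test and the fold threshold in 1 genotype. With CpG it was at 8.18, 7.84 and 8.04 log2 CPM in Tlr9het against 7.87, 7.74 and 7.95 without, and these groups overlapped. The Tlr997 libraries were at 8.14, 8.06 and 8.05 with CpG against 8.04, 7.86 and 7.82 without, with a narrow gap between the nearest ones. Neither difference passed the test, with log2 fold changes of 0.17 (SE 0.09, 95% interval -0.02 to 0.35, adjusted p = 0.096) in Tlr9het and 0.18 (SE 0.09, interval -0.01 to 0.36, adjusted p = 0.08) in Tlr997. With the replicate number added to the limma model as a block, the adjusted p were 0.019 and 0.015, and both differences stayed under the fold threshold. With CL097, Tlr779 libraries were at 8.78, 8.76 and 8.35 against 7.51, 7.61 and 7.81 without, all above the unstimulated ones, and the log2 fold change was 0.99 (SE 0.13, adjusted p = 0.00031).

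**Figure D2:**
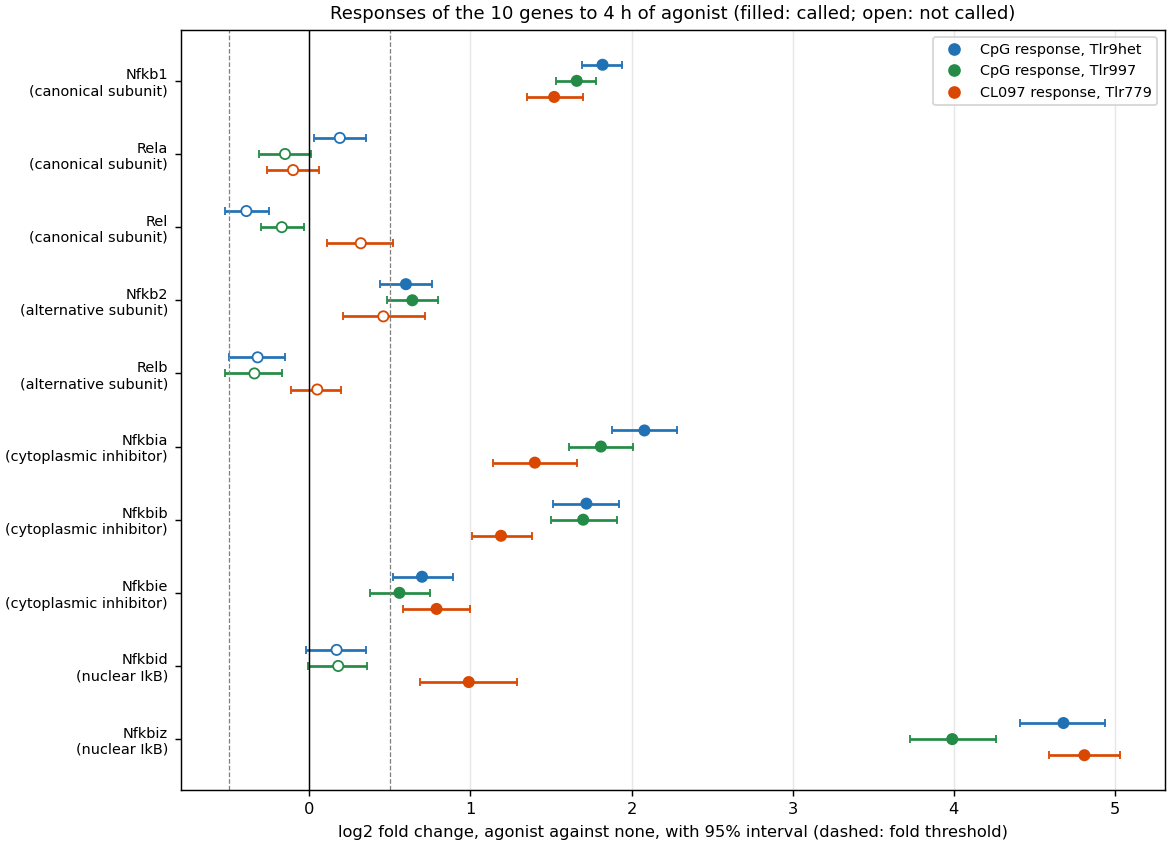
Log2 fold changes of the 10 genes after 4 h of agonist against no agonist (x axis, with the 95% limma interval) for CpG in Tlr9het, CpG in Tlr997 and CL097 in Tlr779. Filled points passed the test and the dashed threshold of 0.5. Nfkbiz lies between 3.99 and 4.81, Nfkb1 between 1.52 and 1.82, and Rela between -0.15 and 0.19.

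Of the canonical subunits, Nfkb1 alone was called, which takes both an adjusted p under 0.05 and a log2 fold change beyond 0.5. Its level was 9.63, 9.67 and 9.73 log2 CPM in unstimulated Tlr9het libraries and 11.52, 11.53 and 11.44 with CpG. For Tlr997 it was at 9.64, 9.70 and 9.77 without and at 11.41, 11.41 and 11.27 with CpG, and in Tlr779 at 9.53, 9.54 and 9.41 without and at 11.07, 10.92 and 11.06 with CL097. The groups were separated by more than 1 log2 unit in each genotype, and the log2 fold changes were 1.82 (SE 0.06, adjusted p = 1.4e-11), 1.66 (SE 0.06, adjusted p = 4.3e-11) and 1.52 (SE 0.08, adjusted p = 4.5e-06). Shares of the 5 subunits were taken from summed CPM, without correction for gene length. Nfkb1 took 44.6% ± 0.82 of the subunit level in unstimulated Tlr9het libraries (SD, n = 3) and 72.6% ± 0.97 with CpG. The shares were 44.2% ± 1.1 and 69.4% ± 1.3 in Tlr997, and 41.5% ± 0.85 and 62.6% ± 2.8 in Tlr779.

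Rela, whose product RelA carries a potent activation domain, was not called in any genotype. In Tlr9het it was at 7.46, 7.3 and 7.44 log2 CPM without and at 7.66, 7.50 and 7.61 with CpG, a log2 difference of 0.19 (SE 0.07, adjusted p = 0.034) that stayed under the fold threshold. The Tlr997 libraries were at 7.50, 7.53 and 7.40 without and at 7.31, 7.47 and 7.2 with CpG and overlapped (-0.15, SE 0.07, interval -0.31 to 0.01, adjusted p = 0.081). In Tlr779 they were at 7.51, 7.45 and 7.56 without and at 7.35, 7.37 and 7.51 with CL097 and overlapped as well (-0.10, SE 0.07, interval -0.26 to 0.06, adjusted p = 0.26). Each interval lies within 0.5 of 0.

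Rel, whose product is the main partner of p50 in mature B cells, was lower with CpG in the first arm and higher with CL097 in Tlr779. It was at 8.70, 8.71 and 8.66 log2 CPM in unstimulated Tlr9het libraries and at 8.35, 8.32 and 8.25 with CpG, all lower. In Tlr997 it was at 8.70, 8.81 and 8.72 without and at 8.43, 8.65 and 8.66 with CpG, lower by a smaller margin. In Tlr779 it was at 8.69, 8.81 and 8.49 without and at 8.95, 9.05 and 8.93 with CL097, all higher. None of these reached the fold threshold, with log2 differences of -0.39 (SE 0.06, adjusted p = 8.7e-05), -0.17 (SE 0.06, adjusted p = 0.03) and 0.32 (SE 0.09, adjusted p = 0.015). Between the arms, agonist, genotype and sex differ together and cannot be told apart.

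Among the alternative subunits, Nfkb2, the p100 and p52 gene, rose with CpG. In Tlr9het it was at 8.34, 8.24 and 8.55 log2 CPM without and at 9.02, 8.90 and 9.01 with CpG (0.60, SE 0.07, adjusted p = 6.1e-06). Its Tlr997 libraries were at 8.40, 8.38 and 8.44 without and at 9.12, 8.96 and 9.06 with CpG (0.64, SE 0.07, adjusted p = 3.5e-06). The Tlr779 libraries were at 8.35, 8.52 and 8.25 without and at 8.81, 9.03 and 8.67 with CL097, without overlap but with a log2 difference of 0.46 (SE 0.11, adjusted p = 0.0063), below the fold threshold. Leaving out unstimulated Tlr779 replicate 2 or CL097 replicate 3 brought the Nfkb2 difference to 0.54 and 0.55 and past it. Psd, which shares exon bases with Nfkb2, was at 5.20 ± 0.29 and 6.18 ± 0.13 log2 CPM (SD, n = 3) without and with CpG in Tlr9het, and its part in the Nfkb2 values was not tested.

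Relb, the partner of p52, was at 6.63, 6.55 and 6.74 log2 CPM in unstimulated Tlr9het libraries and at 6.46, 6.27 and 6.23 with CpG. In Tlr997 it was at 6.76, 6.66 and 6.82 without and at 6.53, 6.36 and 6.32 with CpG. The stimulated libraries were the lower ones in both genotypes, with log2 differences of -0.32 (SE 0.08, adjusted p = 0.0027) and -0.34 (SE 0.08, adjusted p = 0.0018) that did not reach the fold threshold. In Tlr779 the values were 6.63, 6.69 and 6.57 without and 6.66, 6.72 and 6.65 with CL097 and overlapped (0.05, SE 0.07, interval -0.11 to 0.20, adjusted p = 0.55).

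By count, 6 of the 10 genes were called higher and 0 lower with CpG in Tlr9het (Nfkb1, Nfkb2, Nfkbia, Nfkbib, Nfkbie and Nfkbiz), where 29.7% of all genes tested were called higher, 28.2% lower and 57.8% in either direction. In Tlr997 these 6 genes were called higher and 0 lower (background 29.6% higher, 26.0% lower and 55.6% in either direction). With CL097 in Tlr779, 6 were called higher and 0 lower (background 22.7%, 23.6% and 46.3%), with Nfkbid in the place of Nfkb2. Libraries with and without agonist did not overlap for 9, 9 and 8 of the 10 genes, against 80.1%, 71.2% and 67.8% of all genes tested. The median log2 fold change of the 10 was 0.65, 0.60 and 0.89, beside 0.04, 0.07 and -0.02 over all genes tested. Without the fold threshold, 9, 8 and 8 of the 10 genes had an adjusted p under 0.05, against 72.7%, 71.1% and 61.6% of all genes tested. The counts in either direction and those without the fold threshold are thus near the background, and those of genes called higher are above it, without a test of that excess.

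The balance between roles was followed as a difference of mean log2 CPM within each library, a description with no test. Gene length was not corrected, which leaves the shifts of these means with agonist unchanged. The values themselves do not rank the roles by abundance. The cytoplasmic inhibitors minus the 5 subunits gave -1.04, -1.15 and -1.06 in unstimulated Tlr9het libraries and 0.04, -0.02 and 0.10 with CpG. This balance was -0.96, -1.04 and -1.26 in Tlr997 without and 0.02, -0.11 and -0.08 with CpG, and -1.22, -1.06 and -1.11 in Tlr779 without and -0.40, -0.39 and -0.57 with CL097. All 3 genotypes thus moved toward the inhibitors without overlap, by 1.12, 1.03 and 0.68. When CPM were summed over each role instead, which weights the balance by the abundant Nfkb1, the shifts were 0.50, 0.41 and 0.23.

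The nuclear IκB genes minus the subunits gave -0.99 ± 0.09 without and 1.05 ± 0.04 with CpG in Tlr9het (SD, n = 3). The same measure gave -0.83 ± 0.13 and 0.93 ± 0.09 in Tlr997, and -1.46 ± 0.21 and 0.98 ± 0.16 in Tlr779. The nuclear balance moved by 2.04, 1.76 and 2.45, and its groups did not overlap. Alternative minus canonical subunits moved the other way, from -1.08 ± 0.11 to -1.48 ± 0.05, from -1.07 ± 0.08 to -1.37 ± 0.14 and from -1.05 ± 0.05 to -1.38 ± 0.14 in the same order of genotypes. Its shifts of -0.40, -0.30 and -0.33 were each without overlap and became -0.85, -0.68 and -0.69 with summed CPM. This direction rests on Nfkb1, with log2 fold changes of 1.82, 1.66 and 1.52, and not on the canonical subunits as a group. Rela had 0.19, -0.15 and -0.10 and Rel -0.39, -0.17 and 0.32, beside 0.60, 0.64 and 0.46 for Nfkb2 and -0.32, -0.34 and 0.05 for Relb. The balance without Nfkb1 was not computed. The precursor genes alone gave a rise of Nfkb1 over Nfkb2 by 1.22, 1.02 and 1.06.

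Single activating subunits were compared with Rela in each library after the data were seen, again with no test. Gene length was not corrected, so positive values do not mean that Rel was the more abundant transcript. Per kilobase, Rela was above Rel in unstimulated Tlr9het cells (5.96 and 5.79 log2 CPM per kb). With CL097 in Tlr779, Rel at 6.08 was above Rela at 5.97, with overlap. Rel minus Rela was 1.24, 1.41 and 1.22 in unstimulated Tlr9het libraries and 0.69, 0.82 and 0.65 with CpG, without overlap. In Tlr997 it was 1.20, 1.29 and 1.32 without and 1.12, 1.18 and 1.47 with CpG, and these overlapped. In Tlr779 it was 1.17, 1.36 and 0.93 without and 1.60, 1.67 and 1.42 with CL097, without overlap and upward. The shifts were -0.57, -0.01 and 0.41. Relb minus Rela shifted by -0.51 without overlap in Tlr9het, and by -0.19 in Tlr997 and 0.14 in Tlr779 with overlap.

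**Figure D3:**
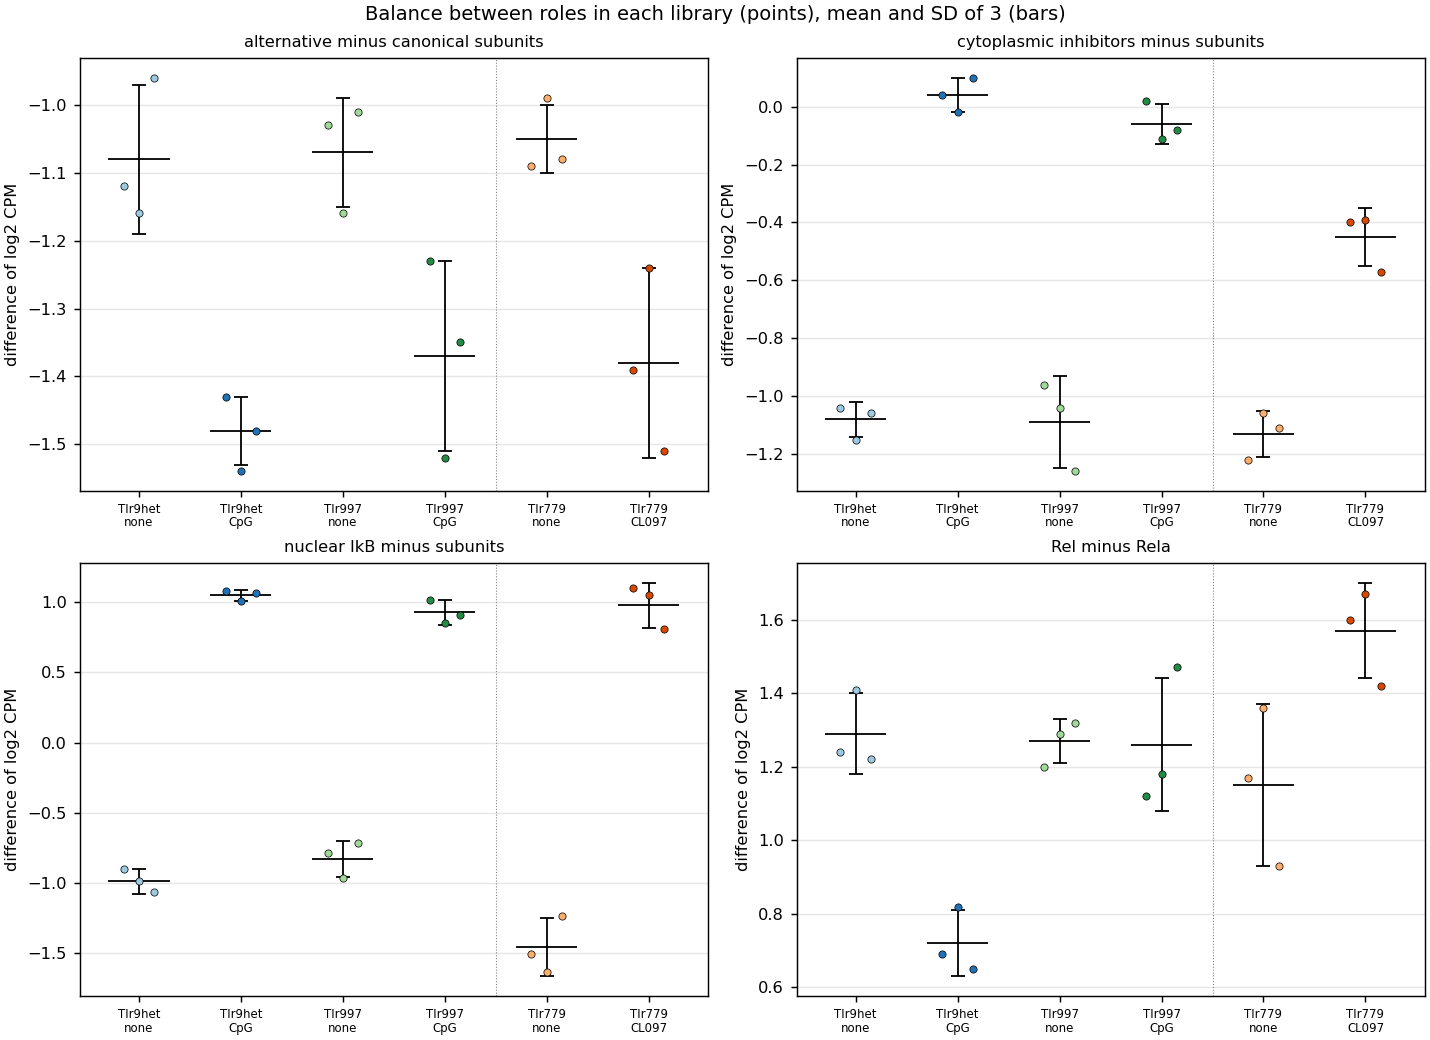
Balance between roles in each library. The y axis is a difference of mean log2 CPM, the x axis the 6 groups, points are libraries, and bars are the mean and SD of 3. Gene length was not corrected. The inhibitor and nuclear IκB balances rise with agonist in each genotype, and Rel minus Rela shifts by -0.57 in Tlr9het, -0.01 in Tlr997 and 0.41 in Tlr779.

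The comparison of Tlr997 with Tlr9het asks whether the TIR domain alters the response to the same DNA ligand. Levels of the Tlr9 transcript, given above, also lay apart between these genotypes, and their part was not tested. For TLR9 protein, the study reported equal amounts in B cells of these genotypes, by staining of cells from male mice. It chose Tlr9+/- as the control for that match. Without agonist, 0 of the 10 genes were called (background 0.0174%), the libraries did not overlap for 0 of 10 (background 13.6%), and 1 gene had an unadjusted p under 0.05. That gene was Nfkbiz, at 6.78, 6.63 and 7.2 log2 CPM in Tlr997 against 6.64, 6.47 and 6.36 in Tlr9het, overlapping groups with a log2 difference of 0.38 (SE 0.12, limma adjusted p = 0.35) that was 0.21 without unstimulated Tlr997 replicate 3. The other 9 differences ranged from 0.01 to 0.11.

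The B cell markers given above did not overlap between the genotypes with CpG (1650 to 1720 CPM in Tlr9het, 2600 to 3160 in Tlr997), and their part in the differences that follow was not tested. With CpG, 0 of the 10 genes were called (background 2.72%), 4 had an unadjusted p under 0.05, and the libraries of the 2 genotypes did not overlap for 5 of 10 against 30.0% of all genes tested. Rel was the one member with an adjusted p under 0.05, as had 5.92% of all genes tested. Its CpG libraries were at 8.43, 8.65 and 8.66 log2 CPM in Tlr997 and at 8.35, 8.32 and 8.25 in Tlr9het, a difference of 0.28 (SE 0.06, interval 0.14 to 0.41, adjusted p = 0.021) that was under the fold threshold. Rela lay the other way, at 7.31, 7.47 and 7.2 in Tlr997 and at 7.66, 7.50 and 7.61 in Tlr9het (-0.26, SE 0.07, interval -0.42 to -0.11, adjusted p = 0.054). The stimulated Nfkbiz libraries were all lower in Tlr997 (-0.31, SE 0.12, interval -0.57 to -0.04, adjusted p = 0.19). Nfkb1 (-0.13, interval -0.26 to -0.01) and Nfkbia (-0.20, interval -0.40 to 0.01) did not overlap either, and their adjusted p were 0.23 and 0.28.

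The difference of the CpG responses, Tlr997 minus Tlr9het, was called for 0 of the 10 genes (background 1.54%), with 3 at an unadjusted p under 0.05. For Nfkbiz it was -0.68 (SE 0.17, interval -1.06 to -0.31, adjusted p = 0.065), which on the linear scale is a response 0.622 times that of Tlr9het. Between libraries of one number the Nfkbiz changes were 4.55, 4.73 and 4.75 in Tlr9het and 4.25, 4.15 and 3.58 in Tlr997. The Nfkbiz difference was called without unstimulated Tlr997 replicate 2 (-0.80, adjusted p = 0.028) and without unstimulated Tlr997 replicate 3 (-0.52, adjusted p = 0.041). It was also called when the replicate number was added as a block (-0.68, adjusted p = 0.025). For Rela it was -0.34 (SE 0.10, interval -0.57 to -0.11, adjusted p = 0.12) and for Rel 0.22 (SE 0.09, interval 0.03 to 0.41, adjusted p = 0.25). With the block their adjusted p were 0.023 and 0.11, and both differences stayed under the fold threshold. Between libraries of one number, the Rela changes were 0.19, 0.20 and 0.17 in Tlr9het and -0.19, -0.06 and -0.21 in Tlr997. Nfkbib, Nfkbid, Relb and Nfkb2 had differences between -0.02 and 0.04, with intervals reaching from -0.31 to 0.28 at most.

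**Figure D4:**
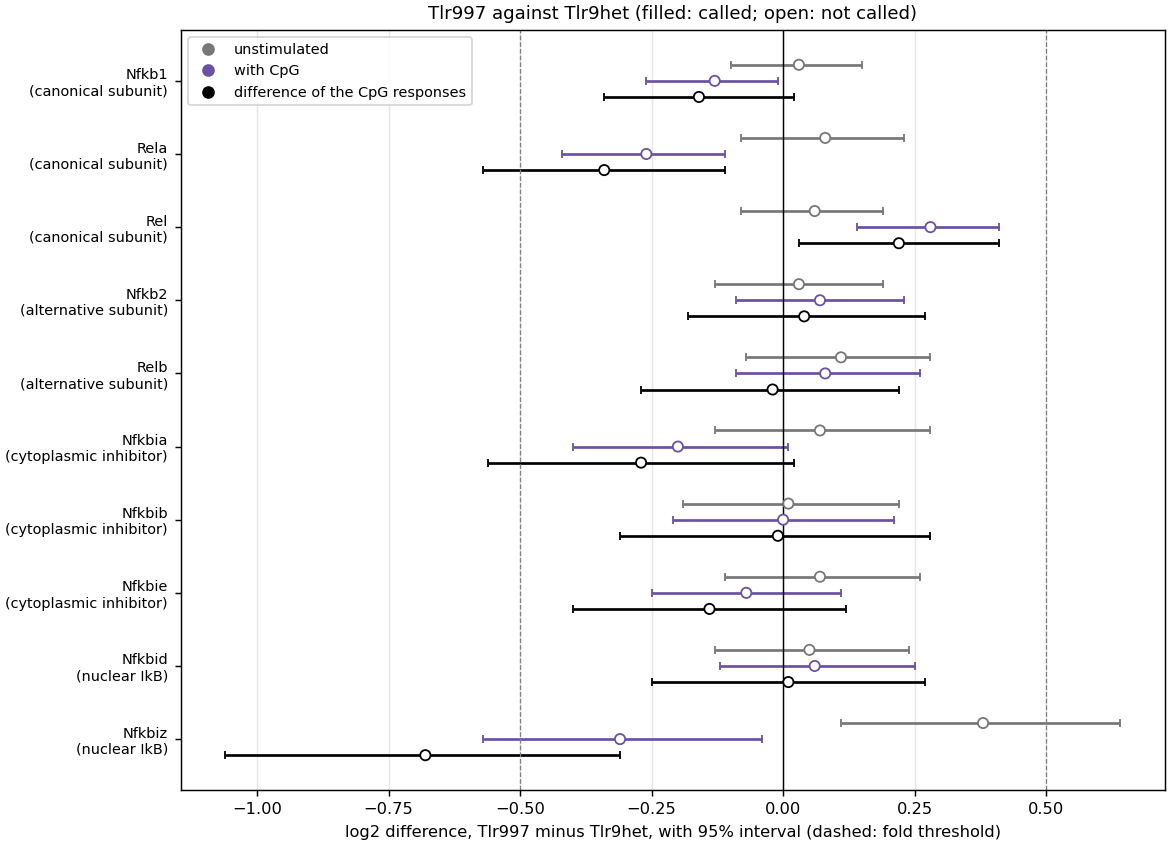
Tlr997 minus Tlr9het for the 10 genes (x axis, log2 difference with the 95% limma interval), without agonist, with CpG, and as the difference of the CpG responses. All points are open because 0 of 10 genes were called in each. The difference of the responses of Nfkbiz (-0.68) lies farthest from 0.

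The CL097 response of Tlr779 and the CpG response of Tlr9het were set against each other in a model of all 18 libraries, a comparison added after the data were seen. Both receptors signal through the TIR domain of TLR9, but the agonist, the ligand-binding part, the sex, the arm and the other receptor genes all differ with it and cannot be told apart. The difference was called for 4 of the 10 genes, 2 higher and 2 lower (background 20.3% in either direction, 10.9% higher and 9.33% lower), and without the fold threshold 7 of 10 had an adjusted p under 0.05 (background 31.1%). The response of Rel was higher by 0.70 (SE 0.11, adjusted p = 0.00014) and that of Nfkbid by 0.82 (SE 0.16, adjusted p = 0.00098) in Tlr779. The Nfkbia difference was -0.68 (SE 0.15, adjusted p = 0.003) and the Nfkbib difference -0.52 (SE 0.13, adjusted p = 0.0067), which was -0.44 without unstimulated Tlr9het replicate 2 and -0.47 without either unstimulated replicate 2 or CL097 replicate 3 of Tlr779, under the fold threshold in each. Relb (0.37), Nfkb1 (-0.29) and Rela (-0.29) had adjusted p of 0.014, 0.017 and 0.043 without reaching the fold threshold. For Nfkbiz the difference was 0.13 (SE 0.17, interval -0.23 to 0.49).

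The machinery that acts on these proteins was followed through 4 lists, whose counts stand beside 57.8%, 55.6% and 46.3% of all genes tested called in either direction. Of 7 genes of the IKK complex and its upstream kinase, 2 fell and 0 rose with CpG in each genotype, and 1 fell with CL097, with list medians of -0.08, -0.01 and 0.08. Ikbkg, the regulatory subunit NEMO, had log2 fold changes of -0.69, -0.62 and -0.71 (adjusted p = 3.1e-07, 1.1e-06 and 1e-04) in Tlr9het, Tlr997 and Tlr779, and Tab2, an adaptor of the kinase TAK1, had -0.74 and -0.60 with CpG (adjusted p = 1.9e-08 and 1.7e-07). Of 4 genes that control the alternative pathway, 2, 1 and 1 fell and 0 rose, with medians of -0.45, -0.08 and -0.10. Map3k14, the kinase NIK that drives Nfkb2 processing, was at 6.54 ± 0.09 log2 CPM without and at 5.60 ± 0.02 with CpG in Tlr9het (SD, n = 3), and its log2 fold changes were -0.93, -0.94 and -0.88 (adjusted p = 8.7e-08, 9.7e-08 and 0.00032). Birc2, an E3 ligase that keeps NIK low, fell by 0.63 with CpG in Tlr9het (adjusted p = 3.1e-05) and had a log2 difference of -0.01 in Tlr997 (adjusted p = 0.93), and this difference between the responses was called at 0.62 (SE 0.13, adjusted p = 0.029), but not when any 1 of 7 of the 12 libraries was left out (adjusted p from 0.059 to 0.083).

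Of 5 genes of the ubiquitin ligase that degrades IκB proteins, 1 rose and 1 fell with CpG in each genotype, and 0 rose and 1 fell with CL097, with medians of 0.36, 0.34 and 0.13. Btrc, a subunit that recognises phosphorylated IκB, had log2 fold changes of -1.46, -1.55 and -0.95 (adjusted p = 2e-07, 1.2e-07 and 3.1e-05). Fbxw11, a substrate-binding subunit on the same list, went the other way, with 0.44, 0.34 and 0.38 (adjusted p = 3.1e-05, 0.00031 and 0.002). These rises stayed under the fold threshold. Rbx1, the RING subunit of the ligase, rose by 0.61 and 0.59 with CpG (adjusted p = 0.00016 and 0.00022), and its Tlr997 difference was 0.45 without unstimulated replicate 3, under the fold threshold. Of 5 other nuclear regulators, 2 rose and 1 fell in each genotype, with medians of 0.55, 0.38 and 0.08. Bcl3, an atypical IκB protein of the same structural family as Nfkbid and Nfkbiz, rose by 0.76 with CpG in Tlr9het and by 1.10 with CL097 (adjusted p = 4e-06 and 5.6e-05). Its difference of 0.38 in Tlr997 was under the fold threshold (adjusted p = 0.0018). The difference between the CpG responses of Bcl3, Tlr997 minus Tlr9het, was -0.38 (SE 0.13, adjusted p = 0.16) and was not called. Nkrf, a repressor, rose by 1.29, 1.34 and 0.84 (adjusted p = 2e-08, 1.6e-08 and 0.00028). Commd1 was the second gene called higher in Tlr997 (0.88, adjusted p = 0.0084), at 4.64, 4.61 and 3.34 log2 CPM without and at 5.15, 4.98 and 5.09 with CpG. Without unstimulated replicate 3, the low library, its difference was 0.45 and under the fold threshold. Pdlim2, which targets nuclear RelA for degradation, had log2 fold changes of -2.61, -1.96 and -1.34 (adjusted p = 1.6e-08, 3.4e-07 and 7e-05).

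Among 21 NF-κB target genes, 19 rose and 1 fell with CpG in each genotype, and 19 rose and 0 fell with CL097, with medians of 2.77, 2.49 and 2.45 beside the medians of all genes given above. Of all genes tested, 29.7%, 29.6% and 22.7% were called higher and 28.2%, 26.0% and 23.6% lower in Tlr9het, Tlr997 and Tlr779. The list was written with earlier results of these libraries known and is not independent evidence of direction. Il12b, one of the 19 that rose with CL097, was at -1.96, -2.53 and -5.03 log2 CPM in unstimulated Tlr779 libraries. It passed the filter on low values there only through the CL097 libraries, so its call adds no support. Tnfaip3, the feedback inhibitor A20, was at 7.17 ± 0.02 log2 CPM without and at 9.50 ± 0.06 with CpG in Tlr9het, and at 7.29 ± 0.08 and 8.99 ± 0.09 in Tlr997 (SD, n = 3). Its responses were 2.32, 1.71 and, with CL097, 1.58 (adjusted p = 2.5e-12, 3.1e-11 and 4e-06). Irf1, itself a transcription factor, had log2 fold changes of -1.09 and -0.68 with CpG (adjusted p = 2.7e-06 and 0.00026) and had a difference of 0.26 with CL097 (adjusted p = 0.27). With CpG, 4 of the 21 target genes were lower in Tlr997 than in Tlr9het and 0 were higher (background 1.47% lower and 1.25% higher). The 4 were Tnfaip3 (-0.50, adjusted p = 0.00038), Tnf (-0.58, adjusted p = 0.0032), Ccl4 (-0.53, adjusted p = 0.019) and Il12b (-1.15, adjusted p = 0.03). Of these 4, Tnf alone was called with each library left out in turn. Tnfaip3 was at -0.47 without Tlr9het CpG replicate 1 and -0.45 without Tlr997 CpG replicate 2, and the calls of Ccl4 and Il12b ended with 5 and 6 of the 6 CpG libraries (adjusted p from 0.058 to 0.08 and from 0.076 to 0.11). The difference of the CpG responses was called lower for 5 and higher for 1 of the 21 (background 0.853% lower and 0.687% higher), against 0 of the 10 subunit and inhibitor genes in the same fit. Of these 6 target calls, those of Tnf and Stat5a ended with 8 and 11 of the 12 libraries left out singly. With the replicate number as a block, 8 of the 21 were called, with Ccl3 (-0.76, adjusted p = 0.023) and Bcl2l1 (-0.59, adjusted p = 0.044) added. Whether that contrast between the groups of genes exceeds chance was not tested.

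**Figure D5:**
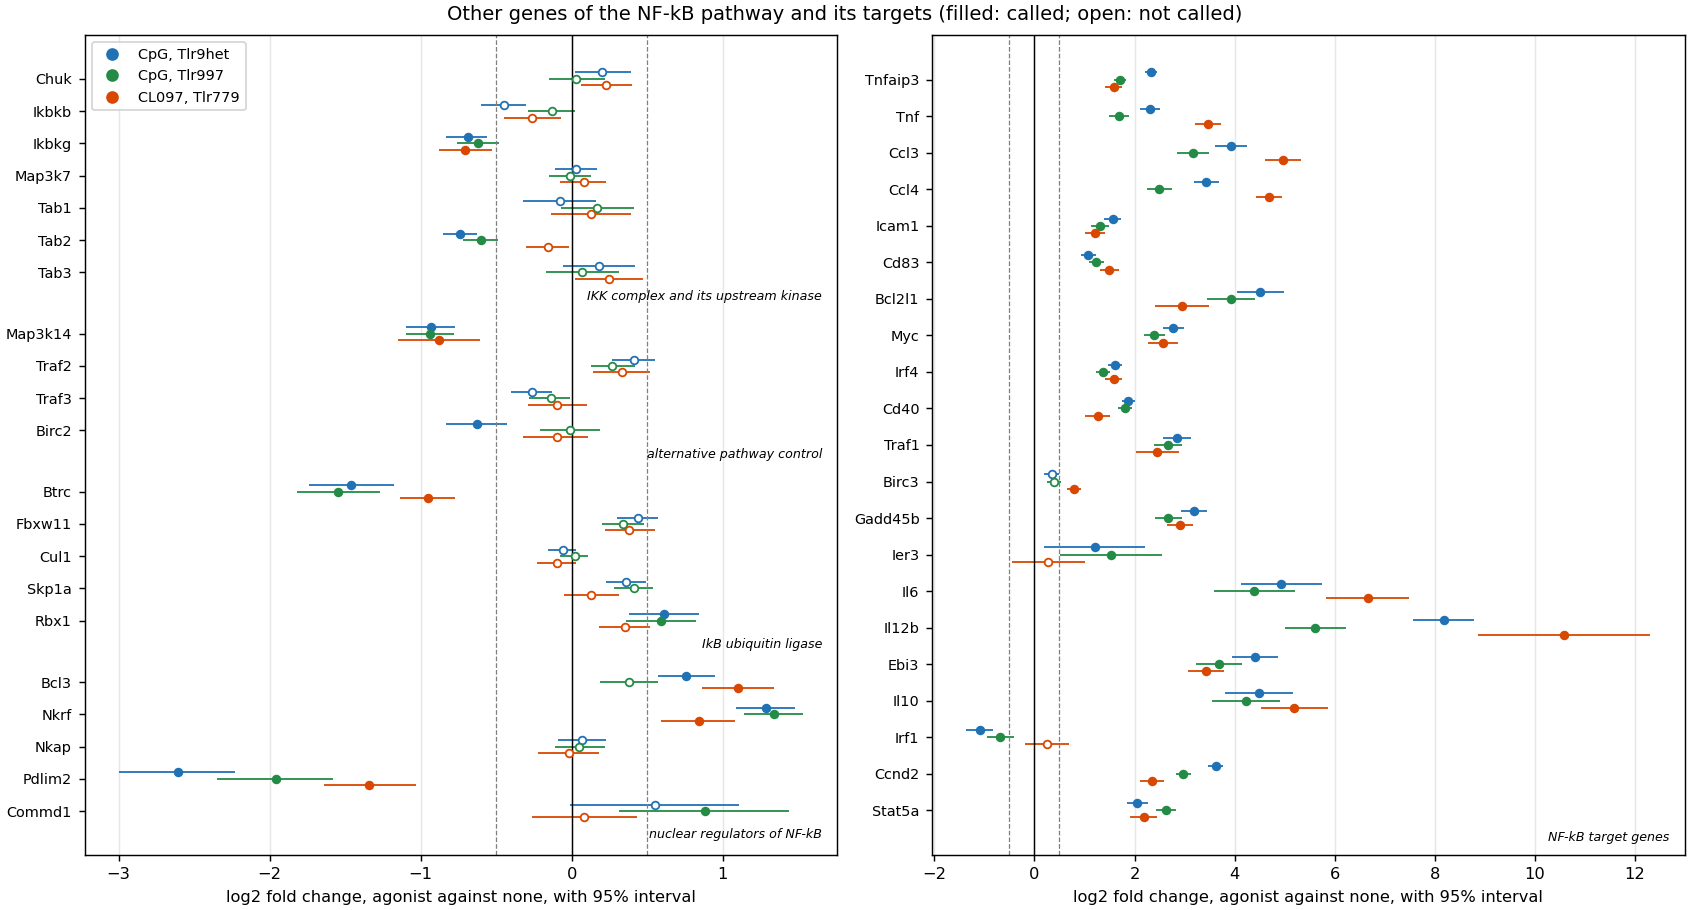
Log2 fold changes after agonist (x axis, with the 95% limma interval) of 21 genes of the NF-κB machinery (left) and 21 NF-κB target genes (right) for CpG in Tlr9het, CpG in Tlr997 and CL097 in Tlr779. Filled points passed the test and the dashed threshold of 0.5. Btrc (-1.46, -1.55 and -0.95) and Pdlim2 (-2.61, -1.96 and -1.34) lie farthest to the left of the machinery.

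Over the 12 libraries of the first arm, which share 2 conditions and so correlate wherever genes respond to CpG, levels of Nfkb1 and Nfkbia had a Pearson's r of 0.99, Nfkb1 and Rel of -0.79, Rel and Relb of 0.69, and Rela and Nfkb1 of 0.12. Outside the members, the genes most like Rel were Plek (r = 0.968), Zc4h2 (0.963) and Arhgef12 (0.956), and those most like Relb were Thra (0.963), Polm (0.952) and Egr1 (0.951). Nfkbia was followed most closely by D2Wsu81e (0.997), Elp5 (0.997) and Icam1 (0.996), a listed target whose level was 6.72 ± 0.07 log2 CPM without and 8.28 ± 0.03 with CpG in Tlr9het (SD, n = 3). For Nfkbid the highest values were lower, at 0.856 for 2500004C02Rik, 0.855 for Hspa1a and 0.844 for Mcrs1.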

How the data were processed

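The authors prepared stranded mRNA libraries from bead-purified B cells and sequenced them in pairs. Per the submitters' processing notes, FastQC 0.11.7, Trim Galore 0.6.5, STAR 2.6.1a, featureCounts from Subread 2.0.1 and limma were used with mm10. The deposited values are log2 CPM after quantile normalization and voom by the authors, 1 file per library with 23420 genes and no counts, so no counting error could be computed. Because voom adds a small offset, fold changes of low genes are understated. Among 6614 genes that stayed under -4 throughout the first arm, 6306 had 1 value per replicate number, and for 822 of them this value differed between numbers. That is the pattern a per-gene offset removed for each replicate number would leave, a step not given in the sources used here. Had it been done, the standard errors and p-values here would not account for it and would be too small, and the pairing correlations would be affected too.

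Genes over 0 log2 CPM in at least 3 fitted libraries were tested with limma 3.58.1 (R 4.3.3, lmFit and eBayes with trend) on the log2 values, with Benjamini-Hochberg adjustment over 11494 genes in the first arm (12 libraries in 1 model) and 11082 in the Tlr779 arm (6 libraries). Calls required an adjusted p under 0.05 together with a log2 fold change beyond 0.5 in size. Intervals are 95% limma intervals for single genes. Named were all members, all genes of the pathway lists whose calls are described, and for Rel, Relb, Nfkbia and Nfkbid the 3 genes with the highest r. Members and lists were chosen with earlier results of these data known. Levels per kilobase used exon lengths from GENCODE M21. The scripts were tested on simulated data. Samples with the same number and genotype were checked for pairing by the correlation of their deviations from the group means, which was 0.51, 0.29 and 0.51 in Tlr9het, 0.25, 0.49 and 0.33 in Tlr779, and 0.37, 0.083 and 0.025 in Tlr997, so not every pair was over 0.1 and the block was kept as an alternative. Alternatives were a replicate block, other filters, a fold threshold of 1, moderation without the trend, centring on the median, other sets of fitted libraries, summed CPM for balances, and leaving out each library.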

Additional observations from a re-analysis of the deposited data

Results flagged for a closer look

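The CL097 response of Tlr779 differed from the CpG response of Tlr9het, by limma's test of the difference in 1 model of all 18 libraries, for 4 of the 10 genes. On the log2 scale the difference (Tlr779 minus Tlr9het) was 0.70 for Rel, 0.82 for Nfkbid, -0.68 for Nfkbia and -0.52 for Nfkbib. Between libraries of one number, Rel was lower with CpG in 3 of 3 Tlr9het pairs (-0.36, -0.39 and -0.41) and higher with CL097 in 3 of 3 Tlr779 pairs (0.26, 0.24 and 0.45). Nfkbid was higher in 3 of 3 pairs in both, by 0.31, 0.11 and 0.08 with CpG and by 1.27, 1.16 and 0.54 with CL097. Nfkbia was higher in 3 of 3 pairs in both, by 2.21, 2.08 and 1.94 with CpG and by 1.62, 1.38 and 1.19 with CL097, and Nfkbib by 1.61, 1.83 and 1.71 and by 1.34, 1.14 and 1.10. Agonist, receptor, sex and arm differ together and cannot be told apart.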

How the results depend on the processing

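Over 1310 values of 70 results under the alternatives, 1268 kept their direction and side of the threshold. Counts of members called ranged from 6 to 6 (CpG, Tlr9het), 5 to 6 (CpG, Tlr997) and 6 to 7 (CL097) when each library was left out, stayed at 0 for both direct genotype comparisons, and ranged from 0 to 1 for the difference of CpG responses and from 3 to 4 for Tlr779 minus Tlr9het, where a fold threshold of 1 left 0. With the replicate block the difference of CpG responses was called for 1 member, Nfkbiz (-0.68, adjusted p = 0.025), and the block changed no other call of a member. It took the called target genes of that difference from 6 to 8, and the called nuclear regulators with CpG in Tlr9het from 3 to 4 (Commd1, 0.55, adjusted p = 0.031). Of the pathway genes called with CpG, 28 of 29 in Tlr9het and 26 of 28 in Tlr997 kept their call with each library left out, as did 24 of 25 with CL097, 1 of 4 with CpG between the genotypes and 4 of 7 for the difference of responses. The calls that ended outside those named above were of Ier3 (CpG, Tlr9het, adjusted p from 0.066 to 0.076 without any 1 of its 6 libraries) and of Il12b (CL097), which without a CL097 library was under the filter. The samples share a number, and whether it marks a mouse is not stated. The balance shifts under summed CPM were -0.85, -0.68 and -0.69 (alternative minus canonical), 0.50, 0.41 and 0.23 (cytoplasmic inhibitors) and 1.88, 1.57 and 1.95 (nuclear IκB) in Tlr9het, Tlr997 and Tlr779. Differences near 0 changed sign as single libraries were left out, between Tlr997 and Tlr9het without agonist from -0.039 to 0.115 for Nfkb2, -0.07 to 0.106 for Nfkbib, -0.012 to 0.103 for Nfkbid, -0.029 to 0.16 for Nfkbia and -0.007 to 0.059 for Nfkb1, with CpG from -0.022 to 0.143 for Nfkbid, and between the CpG responses from -0.082 to 0.05 for Relb, -0.105 to 0.07 for Nfkbib, -0.047 to 0.108 for Nfkb2 and -0.077 to 0.089 for Nfkbid. The cause was not tested. Over all genes, calls with CpG between the genotypes numbered 313 (74 to 410 under the alternatives) and those of the difference of responses 177 (46 to 328). Unknown depth limits what can be said of low genes, though every member was above 5 log2 CPM in all libraries.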
